A study of Triticum aestivum with 6 samples.

Results

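A set of 32 bread wheat genes was nearly silent in leaves at 23 °C and abundant at 4 °C. These are the gene IDs whose summed level was under 1 FPKM at 23 °C and 100 FPKM or more at 4 °C, out of 99386 gene IDs in the authors' table. FPKM corrects the number of fragments for transcript length and sequencing depth, and a gene's level is the sum over its transcripts. The same 2 values that chose the genes are given below, so the contrast itself is a description with no test. The 32 genes made up 0.0322% of all gene IDs and 2.62% of the 1223 genes that reached 100 FPKM at 4 °C.

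The study measured leaf RNA of Triticum aestivum by RNA sequencing. The cold group had 3 libraries from plants at 4 °C, labelled 4 weeks, and its control group had 3 libraries from plants at 23 °C, labelled 2 weeks. All 6 carry the lipid label 18:3, a 16-hour day and a light intensity of 120 μmol per square metre and second, and all 6 carry the same note of 2 weeks of cold, the 23 °C group included. The 2 temperatures were run in 2 growth chambers, so that temperature, chamber and labelled weeks cannot be told apart. No cultivar is named in the labels.

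The authors' table gives 1 value per transcript and condition, and none per library. No SD, interval or p-value can therefore be given, and depth is unknown. In whole leaves, fewer cells of a type and less RNA per cell cannot be told apart. The gene IDs carry a chromosome arm and no name. Of all 99386 gene IDs, the 32 included, 0 matched the RefSeq gene table. Neither the function of a gene nor the leaf identity of the tissue could therefore be checked against known genes.

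As background, cereals kept for days to weeks at low, non-freezing temperature acclimate and become more tolerant of frost. CBF transcription factors act early in this response and turn on cold-regulated genes, among them dehydrins and chloroplast COR proteins, and a cluster of CBF genes lies on the long arms of homoeologous group 5. Leaves in the cold also store fructans, made by fructosyltransferases. Bread wheat holds 3 related subgenomes, A, B and D, and most genes have a counterpart, a homoeologue, on the matching arm of each. On chromosome 4A rearrangements have moved arms, so that 4AS matches 4BL and 4DL, and 4AL carries segments that came from 5AL and 7BS. Which of the 32 IDs belong to any of these families was not tested.

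At 4 °C the 32 genes had a median of 259.6 FPKM, with quartiles of 185.4 and 350.04 FPKM, and ranged from 100.4 to 9748 FPKM. At 23 °C their median was 0.210 FPKM, with quartiles of 0.171 and 0.402 FPKM, and the highest was 0.824 FPKM. At 4 °C, 12 genes lay between 100 and 200 FPKM, 7 between 200 and 300, and 13 at 300 FPKM or more, of which 3 passed 1000 FPKM. At 23 °C, 22 of the genes were under 0.3 FPKM and 4 at 0.5 FPKM or more. The remaining 1191 genes that reached 100 FPKM in the cold had a median of 186.3 FPKM at 4 °C against 120.4 FPKM at 23 °C. The 32 genes thus stood apart from these mostly in their 23 °C level, which the rule fixed.

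For the 31 genes above 0 at 23 °C, the ratio of 4 °C to 23 °C ran from 224.2 to 3955 with a median of 1100, and 18 were over 1000. Ratios on so low a base are imprecise, since the 23 °C values lie far below 1 FPKM. On the log2(FPKM + 1) scale, which holds down the change of low genes, the differences ran from 6.22 to 13.25 with a median of 7.67. Over the 42972 genes that averaged 1 FPKM or more the median difference was 0.09, and over the 1223 that reached 100 FPKM at 4 °C it was 0.59. Of those 42972 genes, 485 or 1.13% were at least 8-fold higher at 4 °C, a count that includes all 32 by the rule.

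**Figure D1:**
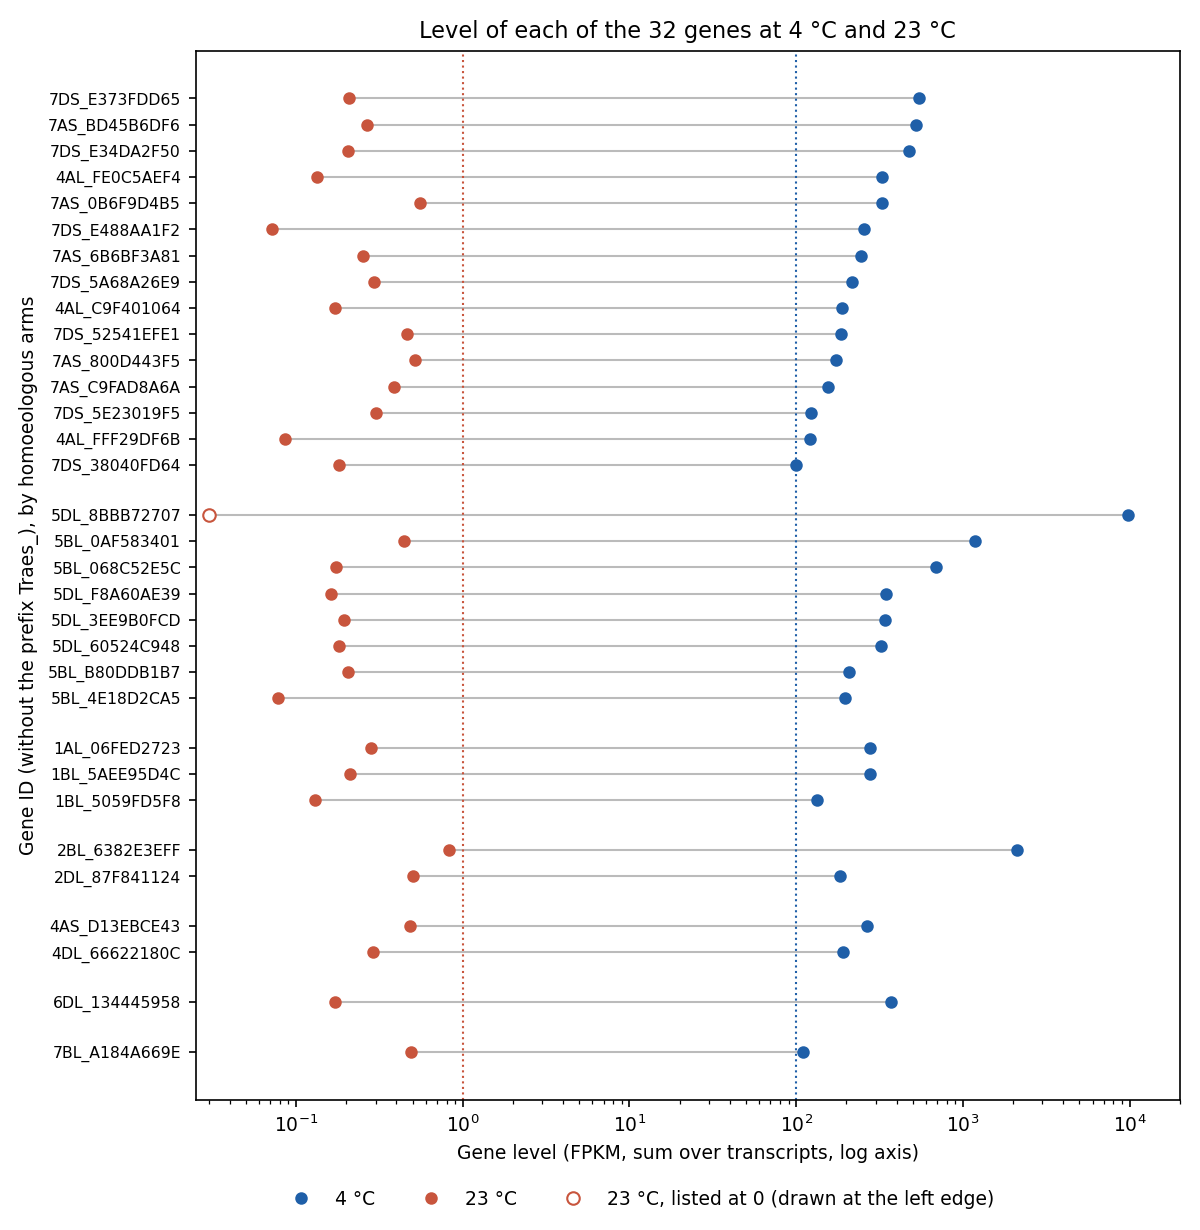
Level of each of the 32 genes in FPKM on a log axis, at 4 °C (blue) and 23 °C (red), with gene IDs grouped by homoeologous arms and the 2 limits as dotted lines at 100 and 1 FPKM. The 4 °C values run from 100.4 to 9748 FPKM and the 23 °C values from 0, drawn as an open circle at the left edge, to 0.824 FPKM.

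The 32 genes took 20919 FPKM at 4 °C, or 1.99% of all FPKM there, and 8.91 FPKM at 23 °C, or 0.000886% of that column. A single gene, Traes_5DL_8BBB72707, made up 46.6% of that 4 °C sum. The other 31 took 11171 FPKM, or 1.06% of the 4 °C column. By rank at 4 °C, 3 of the 32 were among the 100 highest genes and 18 among the 500 highest.

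The long arms of group 5 held the most abundant of the genes. There were 8, with 4 on 5BL, 4 on 5DL and none on 5AL, and together they had 13036 FPKM at 4 °C, which is 62.3% of the set. That share rests on Traes_5DL_8BBB72707: without it the other 7 had 3288 FPKM, or 29.4% of the remaining 31 genes, against 35.5% for the 15 genes of 7AS, 7DS and 4AL. The 8 genes made up 5.67% of the 141 genes on the 3 long arms that reached 100 FPKM at 4 °C, and 7.92% of the 101 on 5BL and 5DL, arms picked because they hold them.

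On 5DL, Traes_5DL_8BBB72707 had 9748 FPKM at 4 °C and was listed at 0 at 23 °C. Its transcripts had 7181 and 2567 FPKM at 4 °C and both were listed at 0 at 23 °C. It ranked 1 of all genes at 4 °C; since a 0 without read counts may be an estimate that failed, no ratio is given. The other 5DL genes were close to each other in both conditions. Traes_5DL_F8A60AE39 had 343.6 FPKM at 4 °C and 0.161 at 23 °C, Traes_5DL_3EE9B0FCD had 339.5 against 0.194 FPKM, and Traes_5DL_60524C948 had 321.1 against 0.181 FPKM. Their 4 °C levels thus lay within 22.5 FPKM of each other.

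The 5BL genes ranged from 197.2 to 1188 FPKM at 4 °C. Traes_5BL_0AF583401 reached 1188 FPKM at 4 °C, with 0.447 FPKM at 23 °C. Traes_5BL_068C52E5C had 691.7 FPKM at 4 °C against 0.175 FPKM at 23 °C, and its ratio of 3955 was the highest of the 31 that have one. Below these lay Traes_5BL_B80DDB1B7, with 206.8 FPKM at 4 °C against 0.204 FPKM at 23 °C, and Traes_5BL_4E18D2CA5, with 197.2 FPKM at 4 °C against 0.0778 FPKM at 23 °C.

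On 5AL, the third long arm of the group, 40 genes reached 100 FPKM at 4 °C, and none of these was under 1 FPKM at 23 °C. The highest ratio among them was that of Traes_5AL_F7649C79D, with 469.6 FPKM at 4 °C against 7.60 FPKM at 23 °C, a ratio of 61.8. This gene and 2 others on 5AL fell in a neighbouring class, with 1 to under 10 FPKM at 23 °C, at least 100 FPKM at 4 °C and a ratio of at least 10. That class held 36 genes of the table, or 2.94% of those with 100 FPKM at 4 °C, and 11 of the 36 lay on the long arms of group 5, with 6 on 5BL and 2 on 5DL. These 11 were 7.80% of the 141 genes on those arms that reached 100 FPKM at 4 °C. Genes named here for arms without one of the 32 were chosen after their values were seen, as the highest ratio or the highest 4 °C level.

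The arms 7AS, 7DS and 4AL held 15 of the 32 genes, the largest number of any homoeologous group when 4AL is counted with the short arms of group 7. There were 7 on 7DS, 5 on 7AS and 3 on 4AL. None lay on 7BS. With 7BS included, these 15 were 11.9% of the group's 126 genes that reached 100 FPKM at 4 °C. On 7AS, 7DS and 4AL alone they were 13.8% of 109 such genes, against 1.53% of the 1114 on the remaining arms, 7BS among them. That contrast is between arms picked for their counts. The 15 genes had a median of 217.1 FPKM at 4 °C, with a range of 100.4 to 547.1, and 3965 FPKM in all. The 8 genes of 5BL and 5DL had a median of 341.6 FPKM and a range of 197.2 to 9748, so that the 2 sets of genes overlapped in level.

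On 7DS, Traes_7DS_E373FDD65 had 547.1 FPKM at 4 °C against 0.209 FPKM at 23 °C, and Traes_7DS_E34DA2F50 had 475.6 FPKM at 4 °C against 0.205 FPKM at 23 °C. Traes_7DS_E488AA1F2 had 254.2 FPKM at 4 °C against 0.0715 FPKM at 23 °C, the lowest 23 °C value above 0 in the set. Next came Traes_7DS_5A68A26E9, at 217.1 FPKM at 4 °C against 0.293 FPKM at 23 °C, and Traes_7DS_52541EFE1, at 186.5 against 0.461 FPKM. The lowest were Traes_7DS_5E23019F5, at 122.05 FPKM at 4 °C against 0.301 FPKM at 23 °C, and Traes_7DS_38040FD64, at 100.4 FPKM at 4 °C against 0.181 FPKM at 23 °C. Levels on this arm thus spanned the whole range of the 15 genes at 4 °C.

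The 7AS genes covered much of the same range. Traes_7AS_BD45B6DF6 had 524.5 FPKM at 4 °C against 0.266 FPKM at 23 °C. Traes_7AS_0B6F9D4B5 followed with 325.9 FPKM at 4 °C against 0.556 FPKM at 23 °C, and Traes_7AS_6B6BF3A81 with 245.3 FPKM at 4 °C against 0.253 FPKM at 23 °C. Traes_7AS_800D443F5 had 173.6 FPKM at 4 °C against 0.515 FPKM at 23 °C, and Traes_7AS_C9FAD8A6A had 155.1 FPKM at 4 °C against 0.386 FPKM at 23 °C. The highest on 7AS was thus between the top 2 on 7DS, and no 7AS gene was as low as the last 2 on 7DS.

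On 4AL, Traes_4AL_FE0C5AEF4 had 327.7 FPKM at 4 °C against 0.134 FPKM at 23 °C. Traes_4AL_C9F401064 had 188.9 FPKM at 4 °C against 0.172 FPKM at 23 °C, and Traes_4AL_FFF29DF6B had 121.2 FPKM at 4 °C against 0.0865 FPKM at 23 °C. All 3 were under 0.2 FPKM at 23 °C, whereas all 5 genes on 7AS were above it. Another 4AL gene, Traes_4AL_16456D1B6, missed the 23 °C limit, with 196.07 FPKM at 4 °C against 1.52 FPKM at 23 °C. The arm also held 11 genes between 10 and 100 FPKM at 4 °C that were under 1 FPKM at 23 °C, or 3.63% of its 303 genes in that range. Over all arms that class counted 219 genes, or 1.94% of the genes with 10 to under 100 FPKM at 4 °C.

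On 7BS, 17 genes reached 100 FPKM at 4 °C. Of these, Traes_7BS_6606D4150 had the highest ratio, 24.4, with 182.9 FPKM at 4 °C against 7.49 FPKM at 23 °C. Among 7BS genes under 1 FPKM at 23 °C the highest at 4 °C was Traes_7BS_5658CFA84, at 18.0 FPKM and with 0.937 FPKM at 23 °C. The pattern was thus shared by 7AS, 7DS and 4AL at the limits used, and no 7BS gene met both.

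**Figure D2:**
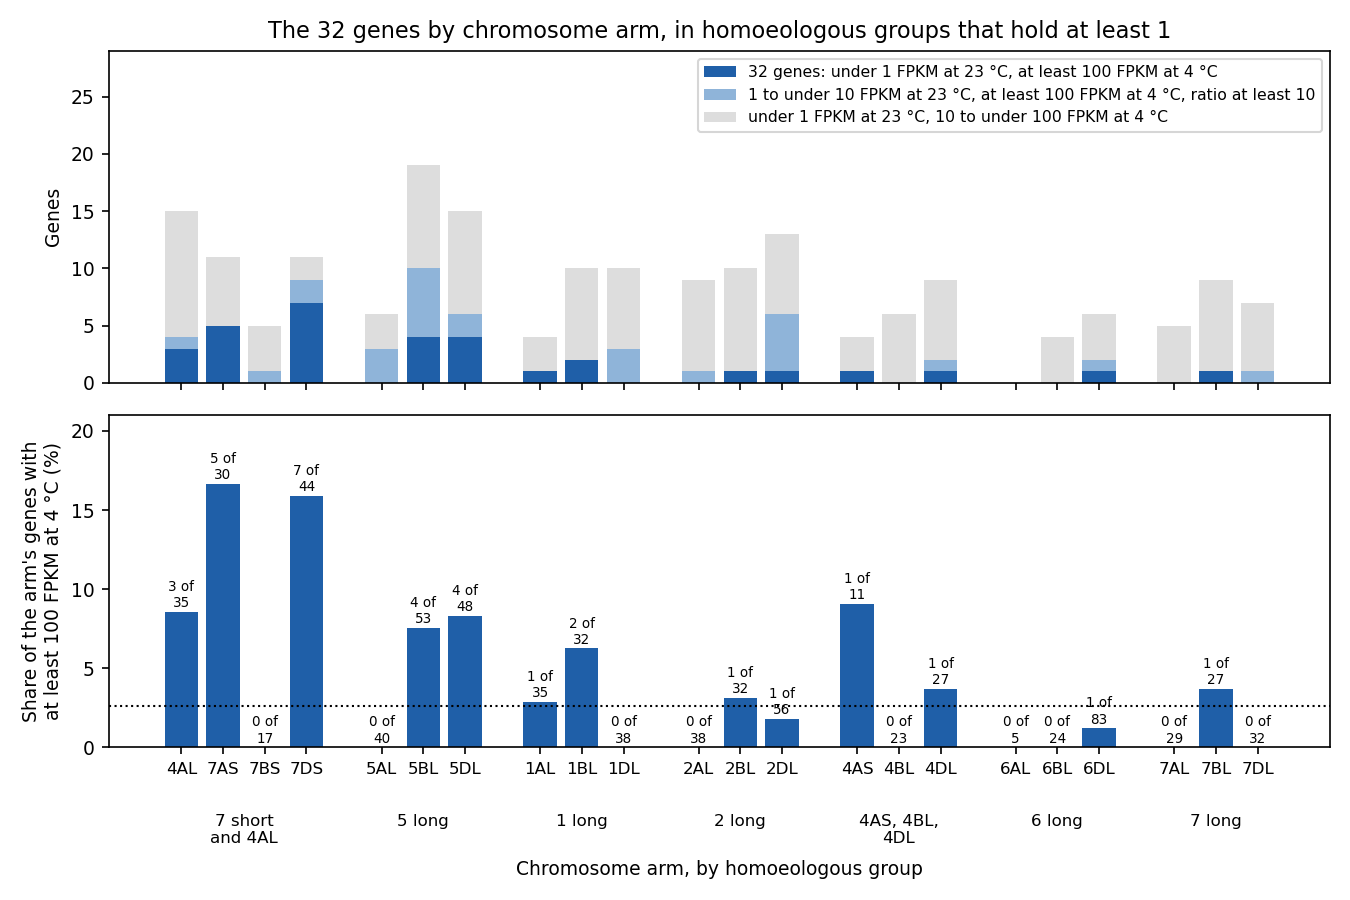
Upper panel, number of genes per chromosome arm in 3 classes, for the 7 homoeologous groups that hold at least 1 of the 32 genes. Lower panel, the 32 genes as a percentage of each arm's genes with at least 100 FPKM at 4 °C, with both counts above the bar and the value over all arms, 2.62%, as a dotted line; 7AS (5 of 30) and 7DS (7 of 44) are the highest bars, and 7BS and 5AL are at 0.

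Group 2 long arms carried the second most abundant of the genes and, just outside the limits, one like it on another arm. Traes_2BL_6382E3EFF had 2112 FPKM at 4 °C against 0.824 FPKM at 23 °C, the highest 23 °C level of the set. Traes_2AL_079988C38 had 2313 FPKM at 4 °C against 1.07 FPKM at 23 °C, so that it was left out by the 23 °C limit alone. Both have 2 transcripts, and their ratios were 2563 on 2BL and 2160 on 2AL. The 2DL gene of the set was of another order, as Traes_2DL_87F841124 had 182.07 FPKM at 4 °C against 0.502 FPKM at 23 °C. Whether the 2AL and 2BL genes are homoeologues is not stated in the table. The 2 genes of the set were 1.59% of the 126 genes on the group 2 long arms that reached 100 FPKM at 4 °C, against 2.62% over all arms.

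On group 1, the long arms 1AL and 1BL held 3 of the genes. These were 2.86% of the 105 genes on the group's long arms that reached 100 FPKM at 4 °C, near the 2.62% over all arms. The IDs do not say whether the 1AL and 1BL genes are homoeologues. Traes_1AL_06FED2723 had 279.07 FPKM at 4 °C against 0.283 FPKM at 23 °C, and Traes_1BL_5AEE95D4C had 276.3 FPKM at 4 °C against 0.211 FPKM at 23 °C. These levels were near each other in both conditions. A second 1BL gene, Traes_1BL_5059FD5F8, was lower, with 133.2 FPKM at 4 °C against 0.130 FPKM at 23 °C. Among the 38 genes on 1DL that reached 100 FPKM at 4 °C, Traes_1DL_430D91CBE had the highest ratio, 32.07. It had 242.3 FPKM at 4 °C against 7.55 FPKM at 23 °C. Of the 1DL genes under 1 FPKM at 23 °C, Traes_1DL_96D6306BA was the highest at 4 °C. It had 39.9 FPKM there against 0.644 FPKM at 23 °C, a ratio of 62.0.

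Of the counterpart arms 4AS, 4BL and 4DL, the A and D ones held 1 gene each. These 2 genes were 3.28% of the 61 genes on the 3 arms that reached 100 FPKM at 4 °C, against 2.62% over all arms. The IDs do not say whether they are homoeologues. Traes_4AS_D13EBCE43 had 264.95 FPKM at 4 °C against 0.483 FPKM at 23 °C, and Traes_4DL_66622180C had 190.97 FPKM at 4 °C against 0.288 FPKM at 23 °C. They differ in structure in the table, with 8 transcripts on 4AS and 1 on 4DL. On 4BL the nearest under 1 FPKM at 23 °C was Traes_4BL_160018698, with 43.8 FPKM at 4 °C against 0.0983 FPKM at 23 °C, a ratio of 445.5.

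Single arms carried the last 2 genes. The group 6 one was 0.893% of the 112 genes on the group's long arms that reached 100 FPKM at 4 °C. The group 7 one was 1.14% of 88 such genes, and the share over all arms was 2.62%. Traes_6DL_134445958 had 369.2 FPKM at 4 °C against 0.171 FPKM at 23 °C. On 6AL, 5 of 2175 gene IDs reached 100 FPKM at 4 °C. On 6BL 24 of 2133 did so, and on 6DL 83 of 2393. Neither 6AL nor 6BL held a gene of the set, and the reason was not tested. Traes_7BL_A184A669E had 110.5 FPKM at 4 °C against 0.493 FPKM at 23 °C, the lowest ratio of the set at 224.2. A second 7BL gene, Traes_7BL_8E206460B, lay just under the limit, with 87.3 FPKM at 4 °C against 0.426 FPKM at 23 °C. Among 7DL genes under 1 FPKM at 23 °C, Traes_7DL_C9EC51B0B was the highest at 4 °C. It had 57.2 FPKM against 0.192 FPKM, a ratio of 298.7. On 7AL the same choice gave Traes_7AL_5793EBB0E, with 37.1 FPKM against 0.537 FPKM, a ratio of 69.1.

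In all, 13 of 41 arms held at least 1 of the 32 genes, in 7 of 15 homoeologous groups with 3B counted on its own. In 5 of these 7 groups 2 or more arms held genes, and those groups held 30 of the 32. In the group of 7AS, 7DS and 4AL 3 arms did so, by counting 4AL with group 7; the IDs do not say whether its 3 genes lie in the segment from 7BS, in that from 5AL or in neither. No group held one on the A, B and D arm of the same name. A group with more of the 32 genes can more readily have them on several arms. The count of 5 groups was not compared with randomly placed genes. Whether homoeologues share the pattern was not tested. Apart from those on 7AS, 7DS and 4AS, all of the 32 were on long arms. The genes were 10 of 345 on A chromosomes with at least 100 FPKM at 4 °C (2.90%), 8 of 375 on B (2.13%) and 14 of 503 on D (2.78%). Reads of homoeologues and of near-identical copies can be assigned to each other, so the level of 1 copy is not a fully separate measurement.

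Just inside the 4 °C limit lay Traes_7DS_38040FD64 (100.4 FPKM), Traes_7BL_A184A669E (110.5) and Traes_4AL_FFF29DF6B (121.2). Just below it, besides the 7BL gene above, were Traes_5DL_2D156E093, with 92.2 FPKM at 4 °C over 7 transcripts, and Traes_7AS_FDAB4F643, with 88.5 FPKM, both listed at 0 at 23 °C. At the 23 °C limit, the nearest outside were the 2AL and 4AL genes described above and Traes_6AS_F8D06BEC8, with 244.2 FPKM at 4 °C against 1.92 FPKM at 23 °C.

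**Figure D3:**
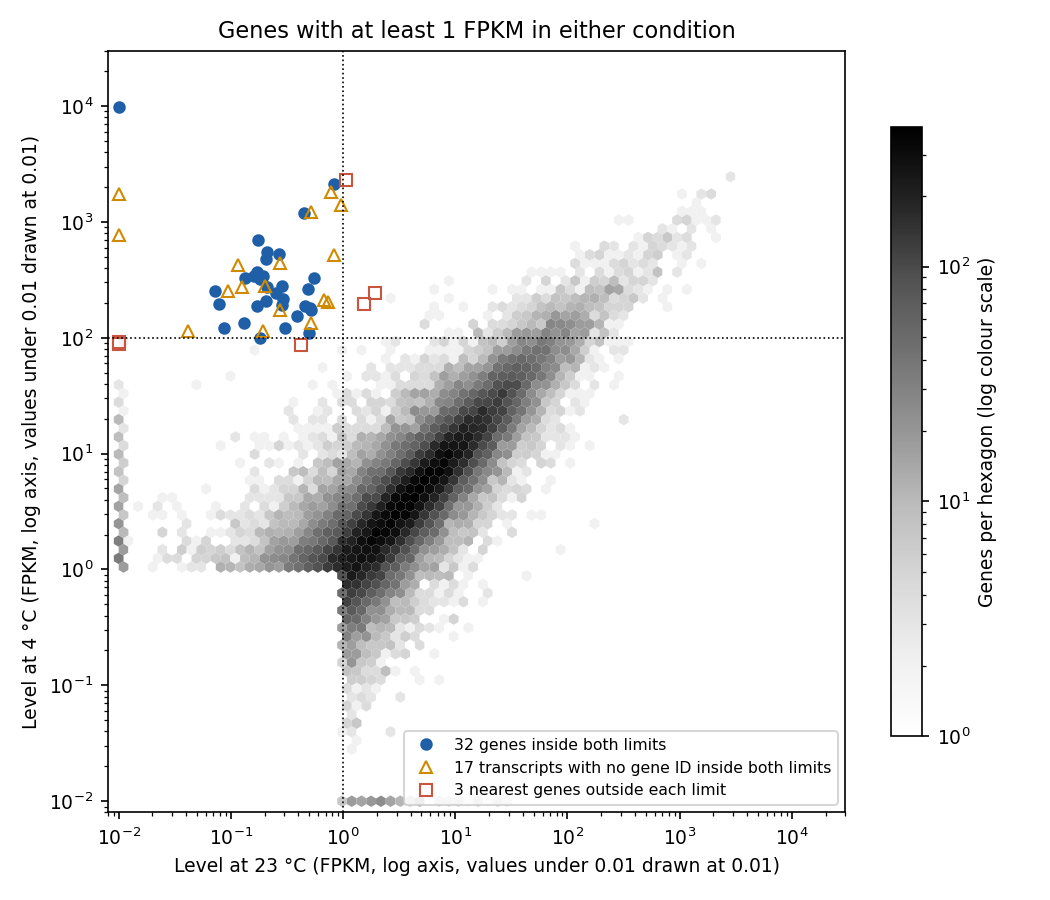
Level at 4 °C against level at 23 °C, both in FPKM on log axes, for genes with at least 1 FPKM in either condition (grey hexagons by number of genes), the 32 genes (blue), 17 transcripts with no gene ID inside the same limits (open triangles) and the 3 nearest genes outside each limit (open squares). The 32 genes lie in the upper left corner, with the 2AL gene at 2313 and 1.07 FPKM just right of the 23 °C limit.

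The 32 genes were assembled as 88 transcripts, from 1 to 9 per gene. Their mean was 2.75 transcripts and the median 2, against 3.92 and 3 for the 1191 comparison genes. The number of transcripts was not used in choosing the genes. The comparison genes were also present at 23 °C, with the median of 120.4 FPKM given above, and the part of this in the number of transcripts was not tested. The set held 10 genes with 1 transcript (31.2%), and the others held 318 (26.7%). By arm the 10 were uneven: 9 were among the 15 genes of 7AS, 7DS and 4AL, and the tenth was the 4DL gene. Of the other 94 genes on 7AS, 7DS and 4AL with at least 100 FPKM at 4 °C, 19 had 1 transcript, or 20.2%. None of the 8 group 5 genes had 1 transcript.

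Most of each gene's level came from 1 transcript. Of the 88 transcripts, 31 had at least 100 FPKM at 4 °C, 14 had 10 to under 100, 20 were above 0 and under 10, and 23 were listed at 0. In the 22 genes with several transcripts, the leading one took a median of 95.5% of the gene's FPKM at 4 °C, and at least 90% in 13 genes (59.1%). In the 873 comparison genes that have several transcripts, the median was 77.5%, and 34.7% of them had a leading share of 90% or more. No test was made of this difference. The 2 sets also differ in the number of transcripts, with means of 2.75 and 3.92 over all their genes, and 12 of the 22 genes had only 2. The part of this in the leading share was not tested.

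The exceptions were few. In Traes_4AS_D13EBCE43 the leading transcript took 44.3% at 4 °C, with 117.5, 85.6 and 53.5 FPKM in its 3 highest. Traes_7AS_C9FAD8A6A had 89.7 and 55.0 FPKM in its 2 highest, so that its leading share was 57.8%. In Traes_5DL_F8A60AE39, the gene with 9 transcripts, the leading one had 215.1 FPKM, or 62.6%, and the next had 75.9 and 41.6 FPKM. For 3 genes, Traes_7AS_C9FAD8A6A, Traes_7BL_A184A669E and Traes_7DS_38040FD64, no single transcript reached 100 FPKM at 4 °C.

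Transcripts of the 32 genes were mostly higher at 4 °C, as the choice of genes makes likely. Of the 88, 64 were higher at 4 °C, 14 lower, and 10 at 0 in both. Of the 14 that were lower at 4 °C, 13 were listed at 0 at 4 °C, and the highest of these had 0.136 FPKM at 23 °C. The leading transcript was the same in both conditions in 17 of the 22 genes and another in 4, and the gene at 0 at 23 °C had none there. No such count was made for the comparison genes, so whether these numbers are usual is not known. The 4 genes with another leading transcript were Traes_5BL_B80DDB1B7, Traes_5DL_3EE9B0FCD, Traes_5DL_F8A60AE39 and Traes_7DS_38040FD64. In the last of these the leading transcript at 4 °C, with 89.8 FPKM, was listed at 0 at 23 °C, and the 23 °C level lay on a transcript with 1.95 FPKM at 4 °C. Transcript shares at 23 °C divide levels under 1 FPKM and have no error here.

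**Figure D4:**
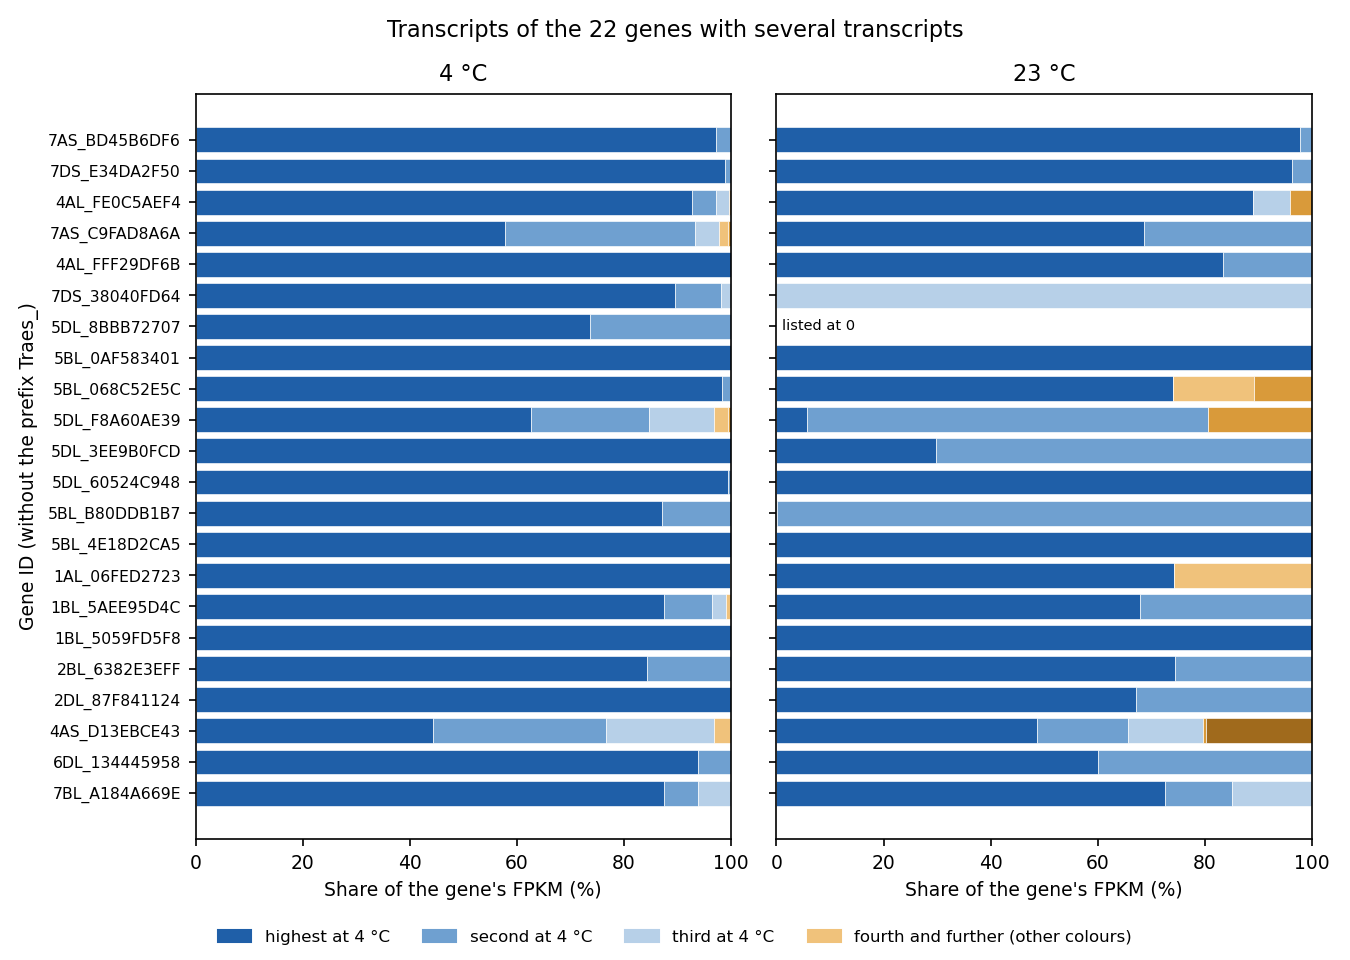
Share of each gene's FPKM by transcript, in percent, at 4 °C (left) and 23 °C (right), for the 22 genes with several transcripts, with colours in order of the 4 °C level. At 4 °C the leading transcript took from 44.3% to 100%, and at 23 °C another transcript led in 4 genes.

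The same pattern was found among transcripts with no gene ID. Of 178 such transcripts with at least 100 FPKM at 4 °C, 17 were under 1 FPKM at 23 °C, or 9.55%. This share is counted over single transcripts and not over gene sums. The same share of single transcripts with a gene ID was not counted, so the 9.55% has no like comparison here. The 17 transcripts had a median of 281.4 FPKM at 4 °C, a range of 113.9 to 1805 FPKM, and 10084 FPKM or 0.958% of the 4 °C column in all. Both of those listed at 0 at 23 °C were abundant at 4 °C, at 1747 and 767.7 FPKM.

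Their place in the transcript numbering gave a partial arm. Transcripts with a gene ID were numbered arm by arm, in 41 unbroken runs for 41 arms. Of the 17, 5 stood between gene IDs of the same arm, 10 between the long and the short arm of 1 chromosome, and 2 between chromosomes. Group 2 chromosomes enclosed 9 of the 17 (52.9%), and 35 of all 178 transcripts with no gene ID that reached 100 FPKM at 4 °C (19.7%). No test was made of this difference. A number is no genome position, and the arm of a transcript at a boundary is not known. Transcripts with neighbouring numbers, such as the 2BL pair described below, may come from the same locus. The 17 are thus not necessarily 17 loci.

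On 2DL, a transcript between gene IDs of that arm had 1747 FPKM at 4 °C and was listed at 0 at 23 °C. On 2AL, one had 1396 FPKM at 4 °C against 0.963 FPKM at 23 °C, and its number stood directly before that of Traes_2AL_079988C38. On 2BL, a pair of consecutive numbers had 274.4 and 113.9 FPKM at 4 °C, with 0.126 and 0.0411 FPKM at 23 °C. With the 23 °C limit of 1 FPKM, each long arm of group 2 thus held a feature above 1000 FPKM in the cold. These were a transcript with no ID on 2AL, a gene on 2BL and a transcript with no ID on 2DL. Both transcripts were placed by their numbers alone. The level of 1000 FPKM was picked after the values were seen. Genes on 5BL and 5DL described above also passed it, so this was not particular to group 2. The last of the 5 with a known arm was on 7AS, with 210.7 FPKM at 4 °C against 0.680 FPKM at 23 °C.

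Others of the 17 stood at a boundary between arms. The highest of the 17, at 1805 FPKM at 4 °C against 0.784 FPKM at 23 °C, was numbered after the last 7AS gene ID and before the first on 7BL, arms that both hold some of the 32 genes. A transcript at 767.7 FPKM at 4 °C and 0 at 23 °C stood 32 numbers after the last 7BS gene ID and 432 before the first on 7DL. Another, at 517.3 FPKM at 4 °C against 0.826 FPKM at 23 °C, stood between 5AL and 5AS. The numbers alone do not place the last 2 on 7BS or 5AL.

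Within arms, the 32 genes were mostly far apart in the same numbering. The nearest pair was Traes_7DS_E488AA1F2 and Traes_7DS_52541EFE1, 6 numbers and 4 other genes apart, with 254.2 and 186.5 FPKM at 4 °C against 0.0715 and 0.461 FPKM at 23 °C. The next were Traes_7DS_E34DA2F50 and Traes_7DS_38040FD64, with 46 other genes between them, and Traes_7AS_BD45B6DF6 and Traes_7AS_C9FAD8A6A, with 59.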

How the data were processed

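Leaf RNA was sequenced from 6 libraries, 3 at 4 °C and 3 at 23 °C, which the series' design text calls biological replicates. The submitters' processing notes list Cuffdiff 2.1.1, Cufflinks 2.1.1, STAR 2.3.0e, Trimmomatic 0.30 and CASAVA 1.8.2, with no roles. Of the genome build nothing is given in the sources used here. Values of 442311 transcripts were deposited by the authors in FPKM, 1 per condition, in columns named cold and control per the file headers. These were taken as 4 °C and 23 °C. Depth is unknown and no test was possible, so limma, planned for values per library, was not run.

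Transcripts were summed per gene ID with Python 3.11.15 and pandas 2.3.3. Chromosome arms were taken from the IDs. Their homoeologous groups were assigned by hand, with 4AS counted with 4BL and 4DL, the whole of 4AL with the short arms of group 7, and 3B on its own. The counting steps were tested on simulated data. The members, arms and classes were chosen with earlier results of these data known. All 32 genes were named, ordered by arm and not by level as planned. Outside the limits, the 3 nearest to each were named as planned. Further genes were named, unplanned, on arms without one of the 32. Gene lists could not be applied, since the IDs have no names. No sequences were printed. Alternatives were other limits, single transcripts, scalings, pseudocounts and filters.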

Additional observations from a re-analysis of the deposited data

How the results depend on the processing

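No paired analysis was possible and no single library could be dropped, because the authors' values are 1 per condition. The count of 32 genes was 28 with a 23 °C limit of 0.5 FPKM, 36 with 2 FPKM, and 31 after median-of-ratios scaling or scaling to the same column sum, and it was 32 with the highest transcript in place of the sum, of which 29 were the same genes. It moved to 53 with a 4 °C limit of 50 FPKM and to 20 with 200 FPKM, by construction of the limits, and to 49 with the transcripts that have no gene ID, an alternative chosen after seeing the data. The 485 genes at least 8-fold higher at 4 °C stayed 485 with no filter on the mean, by construction. A gene 8-fold higher on the log2(FPKM + 1) scale always passes that filter. The count became 1005 with a pseudocount of 0.1 and 457 after median-of-ratios scaling. The members' median log2 difference of 7.67 was 9.48 with a pseudocount of 0.1 and 7.61 after that scaling, which lowers 4 °C relative to 23 °C by 0.09. The leading transcript was the same in 15 of 19 genes where it took at least 60% in each condition. Unknown depth leaves every 23 °C level without an error.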
